A study of Mus musculus with 6 samples.

Results

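The RNA of 39 genes of insulin, PI3K, AKT and mTOR signaling, from the insulin and IGF1 receptors to FOXO and AMPK, was followed in the arcuate nucleus (ARC) of male mice on a normal or a high-fat diet. They were chosen by name and matched to the deposited table by Ensembl identifier, and all 39 were found among its 22322 genes. All 39 also passed the filter on low counts, which left 14188 genes to test. Insulin and insulin-like growth factors bind tyrosine kinase receptors at the cell surface, and adaptor proteins carry the signal to phosphatidylinositol 3-kinase (PI3K), which makes the lipid PIP3 and so brings the kinase AKT to the membrane. AKT holds FOXO transcription factors and GSK3 in check and releases the kinase mTOR from its brake, whereas AMPK, the sensor of low cellular energy, acts on mTOR in the opposite direction. In the ARC, at the base of the hypothalamus, this pathway is known for its part in the response of AGRP and POMC neurons to insulin, in feeding and in glucose balance. The levels given are of RNA, and neither protein nor phosphorylation was measured by these libraries.

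Male mice were put on either NCD (normal chow, 16.5% fat) or HFD (high-fat chow with 60% fat) at 4 weeks of age and were kept on it for 16 weeks. ARC tissue was then cut from frozen brain sections by laser capture microdissection, and polyadenylated RNA was sequenced from 3 samples per diet, numbered 1 to 3 (NCD1, HFD1 and so on). The genotype and strain of the sequenced mice were not given with the samples, nor whether a sample was 1 mouse or several, so p-values measure only the spread between these samples. Total counts were 15925648, 9937632 and 6882449 in NCD and 8024664, 10479778 and 5171381 in HFD, a ratio of 3.08 between the largest and the smallest library. Levels are in CPM (counts relative to the library total, adjusted with TMM factors) where 1 gene is compared between libraries, and in FPKM (fragments relative to transcript length and mapped reads, computed by the authors) where genes are compared with each other. Values of the libraries are listed in the order 1, 2, 3 of each diet. A floor of 3 counts corresponded to 0.180 CPM in NCD1 and 0.564 CPM in HFD3, and the smallest count of any pathway gene was 10, for *Foxo4* in HFD2. The floors reflect counting error alone, because the reads carried no molecular identifiers and need not stand for separate molecules.

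Markers of ARC neurons were detected. *Pomc* was at 559.7, 1209 and 500.0 CPM in NCD and 556, 651 and 559 CPM in HFD, and *Agrp* was at 27.2, 29.4 and 61.7 CPM in NCD and 44.0, 39.4 and 87.3 CPM in HFD. *Cartpt*, the most abundant of these markers in the mean over the 6 libraries, was below *Pomc* in NCD1 and NCD2. It was at 396, 673 and 577 CPM in NCD and 904, 777 and 1078 CPM in HFD, with every HFD library above NCD. Its log2 fold change was 0.75 ± 0.25 (SE, adjusted p = 0.999 in edgeR). *Tac2* had a log2 fold change of 0.60 ± 0.27 (SE, adjusted p = 0.999 in edgeR), with overlap. *Kiss1*, which marks the neurons for which the area was cut, had no count in NCD1 and in HFD1, against 27 and 32 counts in NCD2 and NCD3 and 21 and 42 counts in HFD2 and HFD3. Another annotated gene, *Gm28040*, shares exons with *Kiss1*, so its counts are uncertain. *Avp*, which encodes vasopressin of magnocellular and paraventricular neurons, was the most abundant of those markers, at 2382, 4888 and 1961 CPM in NCD and 1048, 944 and 830.3 CPM in HFD. The 6 markers of that list, none of them at 0, summed to 2959.5, 5907 and 2641 CPM in NCD and 1431, 1497 and 1350.0 CPM in HFD, without overlap between the diets. *Avp* and *Oxt* made up most of that sum. Of the 6 markers, 4 had a log2 fold change below 0 and 2 above. Those below were *Avp* (-1.71), *Oxt* (-0.87), *Sim1* (-0.60) and *Crh* (-0.31), and those above were *Trh* (0.51) and *Otp* (0.36). Every HFD library was below every NCD library for *Avp*, *Oxt* and *Sim1*, and above for *Trh*. No marker of the list had an adjusted p under 0.05 in edgeR. Each library therefore held RNA of several cell types, and whether a lower level in such bulk tissue came from fewer cells of a type or from less RNA per cell cannot be told apart.

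The IRS adaptors are shown by their promoters, because a search for 5 short motifs set them apart from the other members by description. RefSeq promoter windows of GRCm38.p6, which reach from 250 bases before a transcript start to 50 after it, were found for 35 of the 39 genes (47 windows), and *Insr*, *Foxo4*, *Deptor* and *Eif4ebp1* had none in the table used. Only the 250 bases before the start were searched, on both strands, and the 50 after it were not. The motifs were the E-box CACGTG, the insulin response core TGTTTTG and the FOXO core TGTTTAC. The others were the cAMP response element TGACGTCA and its core TGACG, which is contained in the longer element. Both CACGTG and TGTTTTG were found in 97 of all 32851 windows (0.295%), and the pathway windows that held both were the 3 of *Irs1*, *Irs2* and *Irs4*. No other pair of the 5 motifs was counted, so this share does not allow for the choice of the pair. A stretch of 72 bases around the pair is given for each, 5′ to 3′ on the strand of the gene, with the E-box and the insulin response core in capitals. The stretches lie upstream of the gene as GENCODE M21 annotates it, at chr1:82291513-82291584 for *Irs1*, chr8:11008932-11009003 for *Irs2* and chrX:141725330-141725401 for *Irs4*, all on the minus strand.
Irs1: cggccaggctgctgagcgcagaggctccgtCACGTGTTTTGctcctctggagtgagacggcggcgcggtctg
Irs2: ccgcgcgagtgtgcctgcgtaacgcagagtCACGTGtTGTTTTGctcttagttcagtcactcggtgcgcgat
Irs4: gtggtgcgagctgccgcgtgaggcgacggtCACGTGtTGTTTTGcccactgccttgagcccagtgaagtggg

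In *Irs1* the motifs overlapped by 2 bases, with the E-box from 115 to 110 bases before the transcript start, and *Irs1* had another TGTTTTG from 32 to 26 bases before it. In *Irs2* and *Irs4* a single base lay between the motifs, and the E-box began 44 bases before the start of *Irs2* and 154 bases before that of *Irs4*. These distances are to the RefSeq starts. GENCODE M21 starts the genes elsewhere, at 82291416 for *Irs1*, 11008458 for *Irs2* and 141725263 for *Irs4*, so distances to its starts differ. Singly, CACGTG was in 4 of the 47 pathway windows (6.02% of all windows), TGTTTTG in 4 (5.56%), TGTTTAC in 1 (3.17%), that of *Akt1*, TGACG in 17 (17.8%) and TGACGTCA in 0 (1.55%). These matches of letters were looked for after the counts had been seen and are a description of the sequences, not of binding.

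The 39 genes spanned a wide range of levels. The highest mean FPKM over the 6 libraries was that of *Rheb*, the small GTPase that switches mTORC1 on, at 141 ± 17.5 (SD, n = 6), and the lowest was that of *Foxo4* at 0.478 ± 0.155. *Gsk3b*, a kinase held in check by AKT, came second at 50.2 ± 2.70 FPKM, followed by the adaptor *Grb2* at 28.1 ± 7.0 FPKM. The ranges of these 3 over the libraries did not overlap, with *Rheb* from 117 to 168 FPKM, *Gsk3b* from 46.1 to 52.3 FPKM and *Grb2* from 20.8 to 41.2 FPKM. From *Grb2* down, every gene overlapped with its next lower neighbour. The *Pdpk1*, *Irs4*, *Deptor* and *Akt1s1* genes followed between 20.6 and 25.9 FPKM, and *Akt1* ranked 8 at 19.6 ± 4.53 FPKM. *Insr* and *Igf1r*, which encode the receptors, were in the lower part of the order, at 3.95 ± 1.19 and 4.78 ± 1.57 FPKM. Near the bottom were *Inppl1* at 1.09 ± 0.331 FPKM and *Irs1* at 0.590 ± 0.297 FPKM.

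**Figure D1:**
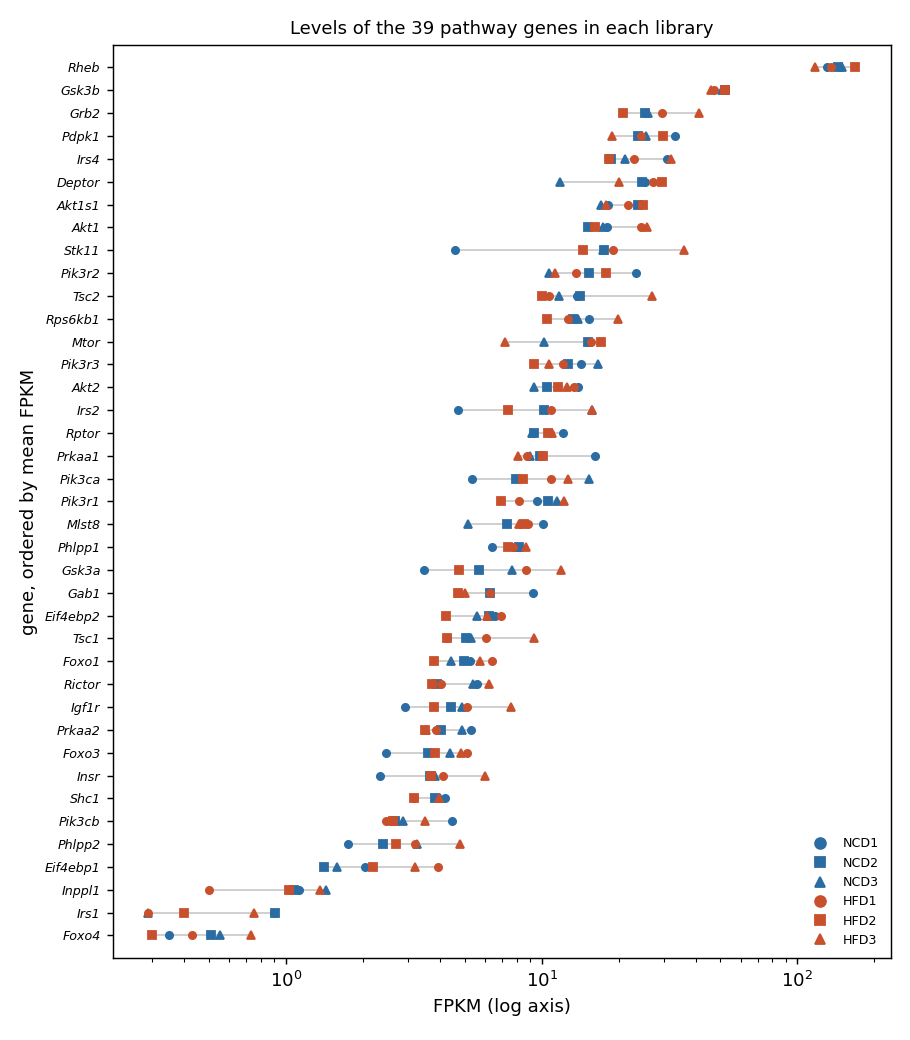
FPKM (log axis) of each of the 39 pathway genes, ordered by mean, with 1 point for each of the 6 libraries (blue for NCD, red for HFD) and a grey line over their range. *Rheb*, from 117 to 168 FPKM, and *Gsk3b*, from 46.1 to 52.3 FPKM, stand apart from the rest, and *Stk11* and *Irs2* spread widely within a diet.

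The comparison of the diets asks which of these genes differ in the ARC of males after a long high-fat diet. No pathway gene passed edgeR's quasi-likelihood test at an adjusted p under 0.05, and the adjusted p of each was 0.999. Over all genes tested 8 did (0.0564%). DESeq2 also called no pathway gene. Before adjustment 1 of the 39, *Eif4ebp1*, had p under 0.05, where 326 of all genes (2.3%) had. Its change was also over 1.5-fold, which with p under 0.05 is the threshold of the study and held for 1.9% of all genes. Single libraries weighed on this count, which was 0 without NCD2, HFD1 or HFD3 and 6 without NCD3, with *Eif4ebp1* not among the 6. In 2 of the 39, *Eif4ebp1* and *Prkaa2*, the HFD libraries lay all above or all below the NCD libraries, as in 918 of all genes (6.47%). The fitted log2 fold change, HFD against NCD, was above 0 for 24 of the 39 and below 0 for 15, and for 50.5% of all genes it was above 0. Its median was 0.08 over the pathway genes and 0.00 over all genes. The pathway values ran from -0.60 for *Irs1* to 0.87 for *Eif4ebp1*.

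The precision of these values sets what could be seen. The median standard error over all genes was 0.258 on the log2 scale, and the biological coefficient of variation was 0.244. For 9 of the 39 genes the 95% interval of the diet difference lay within 1.5-fold in both directions, as it did for 22.4% of all genes. These were *Irs4*, *Pik3r1*, *Pdpk1*, *Phlpp1*, *Gsk3b*, *Tsc2*, *Rheb*, *Mtor* and *Rptor*. For the other 30, a difference of 1.5-fold in at least 1 direction was within the interval.

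**Figure D2:**
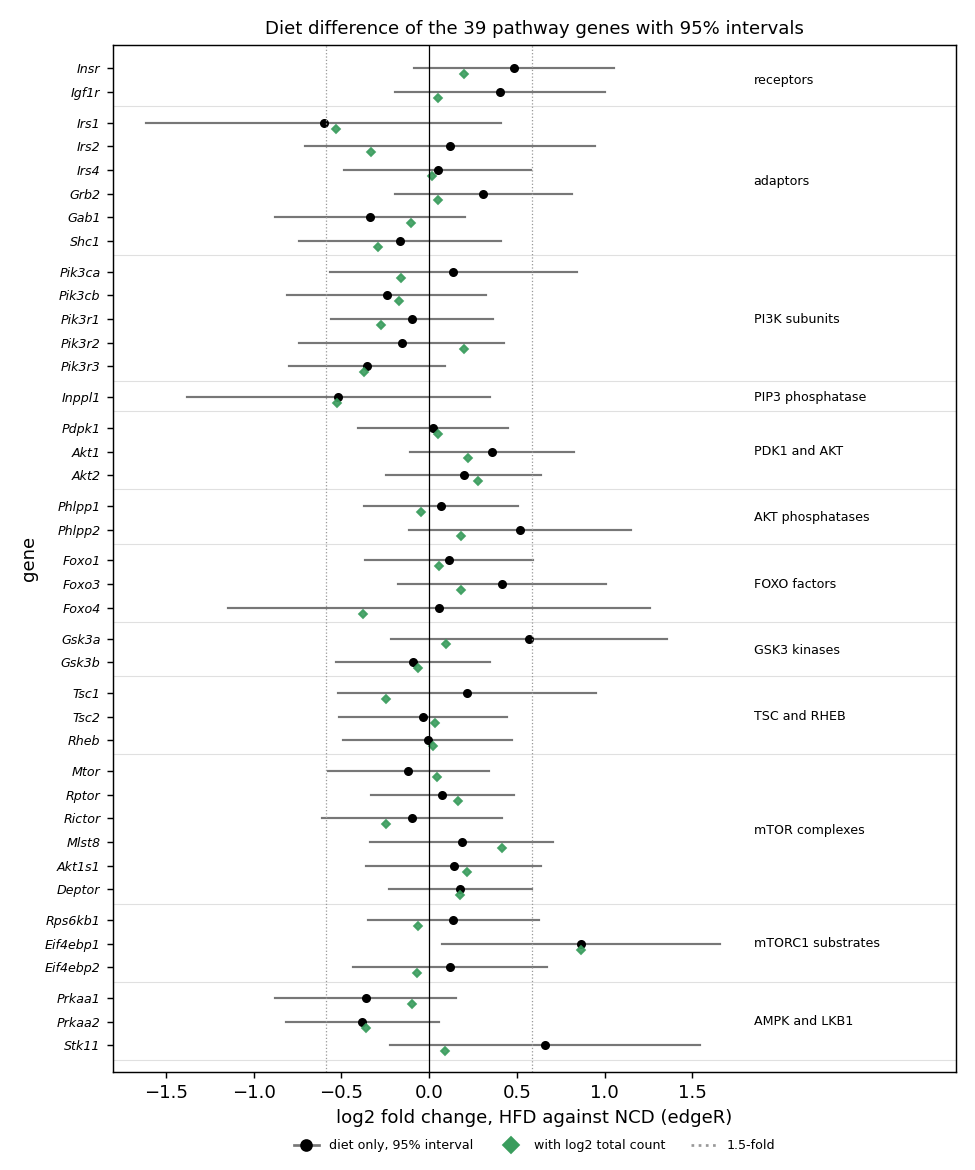
Log2 fold change, HFD against NCD, of the 39 pathway genes grouped by role. Black points with grey lines are the edgeR values with diet alone and their 95% intervals, green diamonds are the values with the log2 total count of the library in the fit, and dotted lines mark 1.5-fold. The interval of *Eif4ebp1* is the one that does not include 0, and the diamonds of *Stk11*, *Gsk3a* and *Igf1r* lie near 0.

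*Insr* and *Igf1r*, the receptor genes, were studied first. *Insr* was at 20.8, 34.6 and 37.0 CPM in NCD and 38.3, 35.9 and 54.9 CPM in HFD. NCD1 was the lowest library and HFD3 the highest, and the diets overlapped because HFD2 lay below NCD3. The log2 fold change of *Insr* was 0.48 ± 0.26 (SE, n = 3 per diet), with a 95% interval from -0.09 to 1.05. *Igf1r* was at 32.0, 50.9 and 57.9 CPM in NCD and 57.9, 44.8 and 83.9 CPM in HFD. The same libraries were lowest and highest, the diets overlapped, and the log2 fold change was 0.41 ± 0.28 (SE). *Insr* made up from 43.9% to 49.4% of the summed FPKM of the receptor genes, so the 2 genes moved nearly in proportion from library to library.

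Of the 6 adaptors, which link the receptors to PI3K and to the RAS pathway, 3 had a log2 fold change above 0 and 3 below. *Irs4*, the most abundant IRS gene here, was at 187, 119 and 138 CPM in NCD and 144, 119.6 and 197 CPM in HFD. NCD1 and HFD3 were the high libraries, and the log2 fold change was 0.05 ± 0.24 (SE). *Irs2*, which in the brain is known for carrying insulin and leptin signals, was at 28.5, 65.2 and 103.5 CPM in NCD and 68.9, 48.3 and 96.5 CPM in HFD. The spread within NCD was larger than the difference between the diets, and the log2 fold change was 0.12 ± 0.38 (SE). *Irs1* was at 7.89, 8.45 and 2.86 CPM in NCD and 2.61, 3.75 and 6.77 CPM in HFD. NCD3 lay among the HFD libraries, and the log2 fold change of -0.60 ± 0.47 (SE) was the lowest of the 39 in this fit. It ran from -1.02 without HFD3 to -0.33 without HFD1 and was -0.19 with limma on log2(FPKM + 1). Of the *Irs1* exon bases, 30.9% are shared with *Gm9747* on the opposite strand, and whether the counting used strand was not given in the sources used here, so its level is uncertain. The other adaptors *Grb2*, *Gab1* and *Shc1* had log2 fold changes of 0.31, -0.34 and -0.17, each with an interval that included 0. With the log2 total count in the fit they were at 0.05, -0.10 and -0.29.

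The IRS genes contributed unequal shares to their family. *Irs4* made up 84.6%, 62.8% and 56.8% of the summed FPKM of *Irs1*, *Irs2* and *Irs4* in NCD and 67.2%, 70.2% and 66.1% in HFD. It was the largest share in every library, with means of 68.1% and 67.9%. *Irs2* ranged from 12.9% in NCD1 to 42.4% in NCD3. *Irs1* was at 3.05% or less in each library.

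PI3K consists of a catalytic and a regulatory subunit. Of the 5 subunit genes, 4 had a log2 fold change below 0. *Pik3r1*, the gene of the p85α regulatory subunit, was at 48.9, 49.8 and 63.6 CPM in NCD and 46.7, 43.7 and 61.5 CPM in HFD. The third library of each diet was high, the diets overlapped, and the log2 fold change was -0.10 ± 0.21 (SE), with an interval from -0.56 to 0.37. The regulatory genes *Pik3r2* and *Pik3r3* were at -0.16 and -0.35, and the catalytic genes *Pik3ca* and *Pik3cb* at 0.14 and -0.24. *Pik3r3* shares 24.3% of its exon bases with another annotated gene and is uncertain for that reason. *Inppl1* encodes SHIP2, a phosphatase that removes a phosphate from PIP3. It was at 4.70, 3.66 and 4.97 CPM in NCD and 1.99, 3.75 and 3.58 CPM in HFD. HFD1 was the low library, HFD2 lay above NCD2, and the log2 fold change was -0.52 ± 0.40 (SE). *Inppl1* shares 18.8% of its exon bases with *Gm10602* on the opposite strand.

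AKT is the kinase at the centre of the pathway, and PDK1, encoded by *Pdpk1*, phosphorylates it. *Akt1* was at 45.6, 41.4 and 48.4 CPM in NCD and 62.6, 43.7 and 67.9 CPM in HFD. HFD1 and HFD3 were above every NCD library and HFD2 was within the NCD range, and the log2 fold change was 0.36 ± 0.21 (SE), with an interval from -0.11 to 0.83. It was 0.22 with the log2 total count in the fit and from 0.23 to 0.53 without single libraries. *Akt2* was at 40.6, 33.7 and 30.4 CPM in NCD and 42.4, 37.3 and 40.8 CPM in HFD. Its diets overlapped through NCD1, and the log2 fold change was 0.20 ± 0.20 (SE). *Pdpk1* had a log2 fold change of 0.02 ± 0.20 (SE). The PHLPP phosphatases, which remove a phosphate from AKT, are encoded by *Phlpp1* and *Phlpp2*, at log2 fold changes of 0.07 and 0.52. *Phlpp2* was at 13.1, 18.9 and 26.5 CPM in NCD and 25.1, 21.8 and 36.7 CPM in HFD, with overlap between the diets. With the log2 total count in the fit its log2 fold change was 0.18.

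FOXO1, FOXO3 and FOXO4 are transcription factors that AKT keeps out of the nucleus. *Foxo1*, known in ARC neurons as an activator of *Agrp* and a repressor of *Pomc*, was at 43.5, 43.8 and 39.7 CPM in NCD and 55.4, 33.8 and 48.5 CPM in HFD. The HFD libraries lay on both sides of the NCD range, and the log2 fold change was 0.11 ± 0.22 (SE). *Foxo3* had a log2 fold change of 0.41 ± 0.27 (SE), or 0.18 with the log2 total count in the fit. *Foxo4* was at 0.963, 1.63 and 1.81 CPM in NCD and 1.37, 0.986 and 2.26 CPM in HFD, on 10 to 16 counts per library, and its log2 fold change of 0.06 ± 0.55 (SE) had the widest error of the 39. The GSK3 genes encode kinases that AKT inactivates. *Gsk3b* was at 411, 428 and 434 CPM in NCD and 389, 441 and 367 CPM in HFD. It overlapped between the diets at a log2 fold change of -0.09 ± 0.20 (SE). *Gsk3a* was at 7.53, 13.0 and 17.9 CPM in NCD and 19.5, 11.1 and 26.2 CPM in HFD. HFD2 was below 2 of the NCD libraries, and the log2 fold change was 0.57 ± 0.36 (SE). Of the *Gsk3a* exon bases, 28.3% are shared with a gene on the opposite strand.

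TSC1 and TSC2 form the complex that turns RHEB off, and RHEB turns mTORC1 on. *Tsc2* was at 71.5, 60.8 and 45.7 CPM in NCD and 52.3, 53.1 and 69.1 CPM in HFD. The lowest and the highest library were both NCD, and the log2 fold change was -0.03 ± 0.22 (SE). *Rheb* was at 224, 259 and 277 CPM in NCD and 241, 310.4 and 204 CPM in HFD. The HFD libraries included both its highest and its lowest value, and the log2 fold change was -0.01 ± 0.22 (SE). *Tsc1* had a log2 fold change of 0.22 ± 0.34 (SE).

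The 6 genes of the mTOR complexes had log2 fold changes between -0.12 and 0.19. *Mtor*, the kinase itself, was at 82.4, 86.0 and 59.0 CPM in NCD and 73.7, 76.3 and 59.6 CPM in HFD. The third library was low in both diets, and the log2 fold change was -0.12 ± 0.21 (SE). *Rptor*, which encodes the mTORC1 scaffold raptor, was at 76.7, 62.0 and 62.0 CPM in NCD and 71.0, 72.1 and 68.7 CPM in HFD. The HFD values lay inside the NCD range, and the log2 fold change was 0.08 ± 0.19 (SE). *Deptor*, an inhibitor bound to both mTOR complexes, was at 101, 109.6 and 91.0 CPM in NCD and 106, 113 and 122 CPM in HFD. HFD1 fell between NCD1 and NCD2, and the log2 fold change was 0.18 ± 0.19 (SE). *Rictor*, the scaffold of mTORC2, *Mlst8*, shared by both complexes, and *Akt1s1*, which encodes the mTORC1 inhibitor PRAS40, were at -0.10, 0.19 and 0.14. *Mlst8* shares 22.5% of its exon bases with another gene.

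The mTORC1 substrates gave the one pathway gene with p under 0.05. *Eif4ebp1* encodes 4E-BP1, which blocks the cap-binding factor of translation until mTORC1 phosphorylates it. It was at 3.91, 2.85 and 3.31 CPM in NCD and 7.83, 4.54 and 6.21 CPM in HFD. Every HFD library was above every NCD library. The log2 fold change was 0.87 ± 0.37 (SE), with an interval from 0.07 to 1.66, and its adjusted p was 0.999 (edgeR). Of all genes tested, 171 (1.21%) were higher in HFD at p under 0.05. Its p stayed under 0.05 without NCD1 or without HFD2 but not without any of the other 4 libraries, and its log2 fold change ran from 0.66 to 1.06 over the 6 fits that each left out a library. *Eif4ebp1* lies on chromosome 8 from 27260329 to 27276674 (GRCm38), and no other annotated exon overlaps its own.

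Within the 4E-BP pair, *Eif4ebp1* held 23.6%, 18.5% and 22.1% of the summed FPKM in NCD and 36.2%, 34.3% and 34.3% in HFD. The diets did not overlap in the share of this pair. The mean share was 21.4% ± 2.63 in NCD and 34.9% ± 1.07 in HFD (SD, n = 3), a difference of 13.5 percentage points at the smallest p that 3 against 3 samples allow (two-sided exact permutation test, p = 0.1, adjusted p = 0.75 over 10 gene families). In shares of summed CPM, which are not scaled to length, the difference was 5.18 points. *Eif4ebp3*, of the same family, was left out of these sums. It was at 1.45, 1.94 and 8.29 FPKM in NCD and 4.23, 0.96 and 10.15 FPKM in HFD. The lack of overlap therefore holds for the pair and need not hold with *Eif4ebp3* in the sum. The partner *Eif4ebp2* had a log2 fold change of 0.12 ± 0.25 (SE), and *Rps6kb1*, the gene of the S6 kinase, one of 0.14 ± 0.22 (SE). In the other 9 families the exact permutation p ran from 0.2 to 1.

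**Figure D3:**
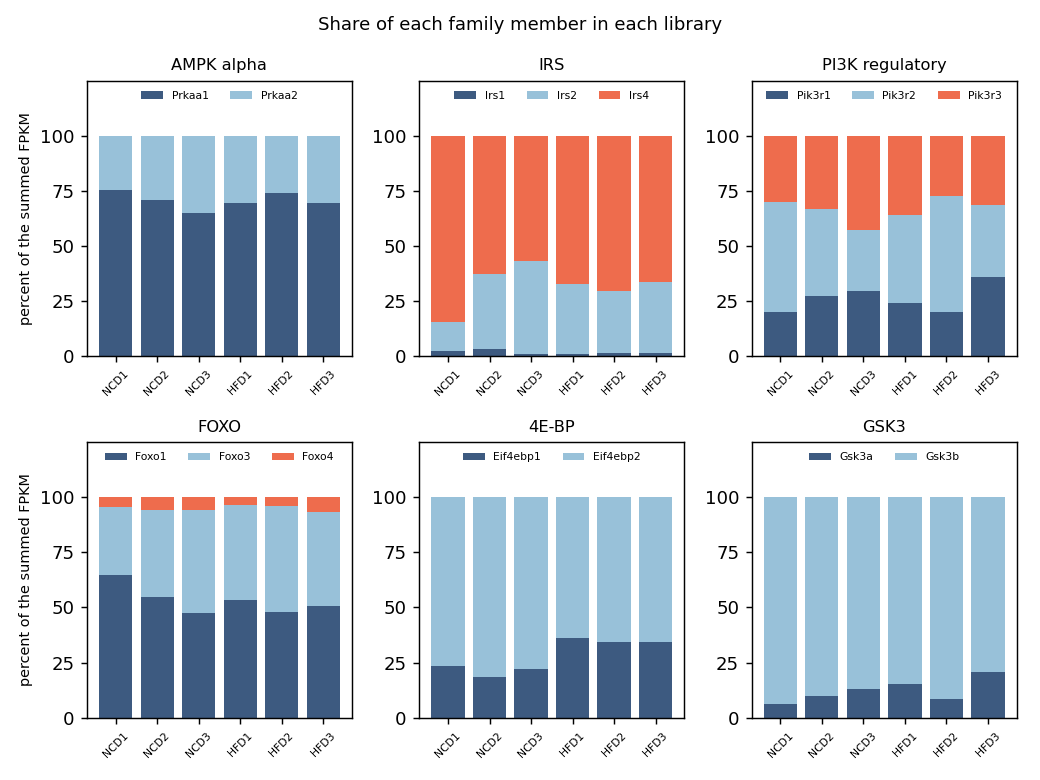
Stacked bars give the percent of the summed FPKM of 6 gene families that each member held in each of the 6 libraries. *Irs4* holds the largest share of the IRS genes in every library. The share of *Eif4ebp1* in its sum with *Eif4ebp2*, without *Eif4ebp3*, is 18.5% to 23.6% in NCD and 34.3% to 36.2% in HFD.

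AMPK is activated by LKB1, the product of *Stk11*. *Prkaa2*, the gene of its α2 catalytic subunit, was at 40.3, 32.6 and 40.2 CPM in NCD and 30.6, 28.8 and 27.5 CPM in HFD. Every HFD library was below every NCD library, a pattern that 3.24% of all genes showed in that direction. The log2 fold change was -0.38 ± 0.20 (SE), with an interval from -0.82 to 0.06 and an adjusted p of 0.999 (edgeR). It ran from -0.48 to -0.33 when single libraries were left out. *Prkaa1*, the gene of the α1 subunit, had a log2 fold change of -0.36 ± 0.24 (SE), or -0.10 without NCD1 and -0.10 with the log2 total count in the fit. The share of *Prkaa1* in the summed FPKM of both genes was 70.4% in NCD and 71.1% in HFD (two-sided exact permutation test, p = 1). *Stk11* was at 8.19, 24.4 and 23.2 CPM in NCD and 26.7, 17.2 and 44.0 CPM in HFD. NCD1 was far below the other libraries and HFD3 above them, and the log2 fold change was 0.66 ± 0.41 (SE), or 0.27 without NCD1 and 0.25 without HFD3.

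Beyond the diets, several pathway genes followed the size of the library. In an edgeR fit with the diet and the log2 total count, 12 of the 39 had an adjusted p under 0.05 for the total count, against 2485 of all genes (17.5%). Of the 12, 10 were lower in larger libraries (9.86% of all genes) and 2 were higher (7.65%). *Irs2* fell by 1.30 and *Stk11* by 1.30 on the log2 scale for each doubling of the total count, *Gsk3a* by 1.08, *Tsc1* by 1.03 and *Pik3ca* by 0.96. The others that fell were *Phlpp2*, *Igf1r*, *Insr*, *Foxo3* and *Grb2*, by 0.52 to 0.80. *Pik3r2* and *Prkaa1* rose, by 0.76 and 0.54. *Irs2* is an example, from 28.5 CPM in NCD1, the largest library, to 96.5 CPM in HFD3, the smallest. HFD2, NCD2 and HFD1 lay between them in order of size at 48.3, 65.2 and 68.9 CPM, and NCD3, the next smallest library, was highest at 103.5 CPM.

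The receptors and both *Stk11* and *Gsk3a* were thus among the genes whose level went with library size, and the 2 extreme libraries belonged to different diets. With the total count in the fit, the diet difference of *Insr* was 0.20, of *Igf1r* 0.05, of *Stk11* 0.09 and of *Gsk3a* 0.10, and that of *Irs2* was -0.33. It was 0.18 for *Phlpp2*, 0.18 for *Foxo3* and 0.05 for *Grb2*. *Eif4ebp1* and *Prkaa2* had slopes of 0.01 and 0.05 per doubling, and diet differences of 0.87 and -0.36. No pathway gene then had p under 0.05 for the diet, against 447 of all genes (3.15%). Without HFD3, the smallest library, all 12 kept the direction of their slope and 11 an adjusted p under 0.05, and without NCD1, the largest, 12 kept the direction and 9 the adjusted p. Across the 39 genes the slope had r = -0.08 with GC content and r = -0.07 with log2 transcript length, as a description over genes that share these libraries.

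**Figure D4:**
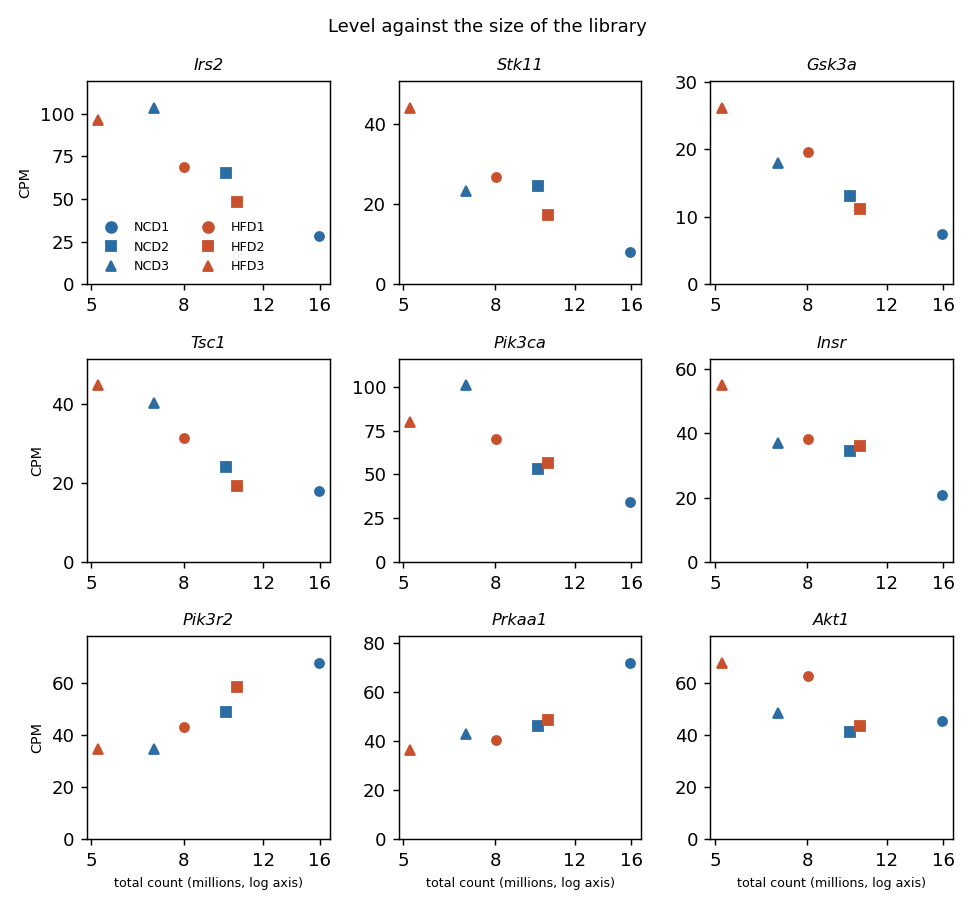
CPM of 9 pathway genes (y axes from 0) against the total count of the library (log axis), with blue for NCD and red for HFD. *Irs2*, *Stk11*, *Gsk3a*, *Tsc1*, *Pik3ca* and *Insr* are lowest in NCD1, the largest library, *Pik3r2* and *Prkaa1* are highest there, and *Akt1* is neither highest nor lowest there.

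Other features of the libraries varied as well. The 13 genes encoded by mitochondrial DNA took 3.20%, 4.24% and 6.57% of the counts in NCD and 4.16%, 3.51% and 5.77% in HFD, highest in the 2 smallest libraries. The 5 tanycyte markers, led by *Vim* and none of them at 0, summed to 110.2, 99.3 and 151 CPM in NCD and 192, 107 and 278 CPM in HFD. The 4 markers of the pars tuberalis, led by *Cga* and likewise all detected, summed to 18.8, 7.23 and 34.5 CPM in NCD and 23.6, 15.2 and 64.2 CPM in HFD. Both sums were highest in HFD3, as were *Insr*, *Igf1r*, *Stk11* and *Gsk3a*. General neuron markers, 6 genes led by *Snap25*, summed to 3487, 3720.0 and 3597 CPM in NCD and 3207, 3736 and 3083 CPM in HFD. The part of these features in the pathway values was not tested.

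The rest of the pathway was examined through 8 lists with 145 genes, of which 137 were tested. None had an adjusted p under 0.05, 2 had p under 0.05 before adjustment, and 55 had a log2 fold change above 0 and 82 below, with a median of -0.07. Over all genes the shares were 0.0564% and 2.3% for these thresholds and 50.5% above 0. With the total count in the fit 64 were above 0 and 73 below, with a median of -0.0053. Among the ligands and their binding proteins, *Ins1* had no count in any library and *Ins2* a single count, in HFD3. *Igf2* was at 32.3, 40.3 and 32.4 CPM in NCD and 22.0, 14.9 and 57.8 CPM in HFD, so the HFD libraries lay on both sides of NCD. *Igf1* had a log2 fold change of -0.16, *Igfbp2* of -0.28 and *Igfbp5* of 0.34, each less than 2 standard errors. With the total count in the fit they were at -0.44, -0.87 and -0.03, and *Igf2* went from -0.17 to -0.75. Of the 9 genes of this list tested, 5 were above 0 and 4 below, or 1 and 8 with the total count in the fit.

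*Sgk1*, a kinase related to AKT and activated through mTORC2, was at 66.3, 73.4 and 60.2 CPM in NCD and 42.5, 61.1 and 29.9 CPM in HFD. HFD2 overlapped with NCD and the other HFD libraries were below it. Its log2 fold change was -0.58 ± 0.25 (SE), under 0.05 in p before adjustment and at an adjusted p of 0.999 in edgeR. *Ppp2ca*, the catalytic subunit of PP2A, a phosphatase that acts on AKT, was at 158, 123 and 218 CPM in NCD and 353, 141 and 339 CPM in HFD. HFD1 and HFD3 were above every NCD library and HFD2 was within the range of NCD, and the log2 fold change was 0.74 ± 0.33 (SE), again with p under 0.05 before adjustment and an adjusted p of 0.999 in edgeR. With the total count in the fit the log2 fold change was 0.43 for *Ppp2ca*, no longer under 0.05 in p before adjustment, and -0.41 for *Sgk1*, still under it. The value of *Sgk1* ran from -0.88 without HFD2 to -0.36 without HFD3. *Ppp2ca* was 1 of 13 PP2A genes tested, of which 6 had a log2 fold change above 0, or 9 with the total count in the fit. Of 18 tested FOXO target genes, activated ones such as *Agrp* and the repressed *Pomc* together, 9 were above 0 and 9 below. Among them, the log2 fold change was 0.53 ± 0.36 for *Agrp*, 0.07 ± 0.26 for *Npy* and -0.36 ± 0.31 for *Pomc* (SE), and with the total count in the fit *Agrp* was at 0.07. Of 18 other adaptors, exchange factors and regulators that act on the receptors and adaptors, restraining ones such as *Ptpn1* and positive ones such as *Sos1* together, 8 were above 0 and 10 below, of 16 other PI3K and AKT genes 5 and 11, of 16 translation and autophagy targets 8 and 8, and of 14 other AMPK genes 4 and 10. With the total count in the fit these splits were 9 and 9, 6 and 10, 5 and 11, and 7 and 7. In these 4 lists, the HFD libraries all lay above NCD for *Ptpn1* (0.27) and *Pik3ip1* (0.39) and all below for *Ulk2* (-0.32) and *Acaca* (-0.27), given with their log2 fold changes and named after their values were seen, and 3.24% of all genes did so in each direction. Of the 33 mTOR partners and nutrient sensors, 23 were below 0 and 12 had an interval within 1.5-fold in both directions, where 22.4% of all genes had. With the total count in the fit 18 of the 33 were above 0 and 15 below.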

How the data were processed

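The RNA-seq libraries came from ARC tissue of 3 NCD and 3 HFD samples, with groups and numbers taken from the sample titles. NovaSeq reads were cleaned, screened against ribosomal sequences in bowtie2 and aligned by the authors to the mouse genome (mm10) with HISAT2, and values per gene came from StringTie and RSEM. The deposited read counts are whole numbers that the authors did not normalize, and the deposited FPKM values were scaled by the authors to transcript length and mapped reads. Tool versions, the annotation and the use of strand were not given in the sources used here. The authors' group means, fold changes, p-values and FDR were in the same table and were not used.

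Counts were filtered with filterByExpr (14188 of 22322 genes), scaled with TMM and tested with the quasi-likelihood test of edgeR 4.0.16 in R 4.3.3, with the diet as the only term and Benjamini-Hochberg adjustment over all genes tested. Total counts ran from 5171381 to 15925648, and the median standard error over genes was 0.258 (log2). A fit with the log2 total count as a second term gave the relation to library size. Exact permutation tests (two-sided, smallest p 0.1) compared the shares of families. Symbols and positions came from GENCODE M21 (GRCm38), and 55 identifiers had no symbol. Exon overlaps were taken from it, and 16 of the 39 genes shared exon bases with another gene, 5 of them over 10%. The edgeR fits with the diet alone and with the log2 total count as a second term were checked on simulated counts. The permutation tests and the other settings were not.

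The pathway genes, the other lists, the motifs and the rule for the genes described were chosen with earlier results of these data known. That rule took every pathway gene with p under 0.05 or no overlap, the 3 largest fold changes in each direction, 13 central genes and the highest and lowest by FPKM. Other settings tried were library totals alone, RLE size factors, DESeq2 1.42.0, filters of at least 1 count or a mean of 50, limma 3.58.1 with trend on log2(FPKM + 1) or log2(FPKM + 0.1) where the mean FPKM was 0.5 or more, the replicate number as a block, and each library left out. Some genes that this rule names, and the family shares that rest on them, are not reported here.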

Additional observations from a re-analysis of the deposited data

How the results depend on the processing

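No pathway gene reached an adjusted p under 0.05 for the diet under any setting tried. The median log2 fold change of the 39 stayed between 0.02 and 0.13 and the number above 0 between 20 and 26. Over all genes, the number called (8) was 19 with DESeq2, 15 with all genes of at least 1 count, 5 with limma on log2(FPKM + 1) and 5 on log2(FPKM + 0.1), 15 with log2 total count in the fit and from 1 to 16 when single libraries were left out. The number at p under 0.05 (326) ran from 197 without HFD1 to 1178 without NCD3. For pathway genes it was 1 (*Eif4ebp1*), 0 where the mean count had to be 50 or more, since *Eif4ebp1* was then not tested, and 0 with the covariate, and it ran from 0 without NCD2, HFD1 or HFD3 to 6 without NCD3, with *Eif4ebp1* not among those 6. For other genes of the pathway it was 2, then 1 with limma on log2(FPKM + 1), 1 on log2(FPKM + 0.1), 3 with the covariate (*Sgk1*, *Pik3ip1* and *Igf2*), and from 0 to 11 without single libraries. The causes of these shifts were not tested.

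Samples with the same number in both diets correlated at -0.01, 0.11 and 0.37 in their deviations from the group means over all genes. Samples with unlike numbers correlated from -0.38 to 0.31. The numbers were not taken as pairs, and these values alone do not settle whether they were. In the fit with the replicate block, 17 genes were called and 589 had p under 0.05, 4 of them pathway genes (*Eif4ebp1*, *Insr*, *Stk11* and *Phlpp2*) and 5 other genes of the pathway.

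Without single libraries the log2 fold change kept its sign but moved by over 1.5 times for *Insr* (0.25 to 0.64), *Igf1r* (0.13 to 0.60), *Irs1* (-1.02 to -0.33), *Grb2* (0.094 to 0.49), *Gab1* (-0.51 to -0.092), *Shc1* (-0.29 to -0.075), *Pik3cb* (-0.38 to -0.024), *Inppl1* (-0.70 to -0.27), *Akt1* (0.23 to 0.53), *Akt2* (0.11 to 0.31), *Phlpp2* (0.27 to 0.80), *Foxo3* (0.16 to 0.70), *Gsk3a* (0.27 to 0.88), *Gsk3b* (-0.17 to -0.036), *Mtor* (-0.26 to -0.018), *Rptor* (0.023 to 0.18), *Mlst8* (0.0023 to 0.39), *Akt1s1* (0.028 to 0.33), *Deptor* (0.12 to 0.24), *Prkaa1* (-0.49 to -0.098), *Stk11* (0.25 to 0.94), *Sgk1* (-0.88 to -0.36) and *Agrp* (0.087 to 1.003).

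Direction reversed in 19 of 346 values of pathway genes under settings other than a left-out library, in 12 genes. With limma on log2(FPKM + 1) *Pdpk1* was at -0.18, *Tsc2* at 0.11, *Rps6kb1* at -0.027 and *Eif4ebp2* at -0.10, and on log2(FPKM + 0.1) they were at -0.18, 0.11, -0.031 and -0.12. With the log2 total count *Irs2* was at -0.33, *Pik3ca* -0.16, *Pik3r2* 0.20, *Phlpp1* -0.043, *Foxo4* -0.38, *Tsc1* -0.24, *Tsc2* 0.032, *Rheb* 0.024, *Mtor* 0.045, *Rps6kb1* -0.065, *Eif4ebp2* -0.071, *Igfbp5* -0.033 and *Npy* -0.21. Without single libraries the log2 fold change ran from -0.26 to 0.61 for *Irs2*, -0.17 to 0.24 for *Irs4*, -0.18 to 0.66 for *Pik3ca*, -0.26 to 0.037 for *Pik3r1*, -0.38 to 0.11 for *Pik3r2*, -0.076 to 0.10 for *Pdpk1*, -0.077 to 0.14 for *Phlpp1*, -0.046 to 0.30 for *Foxo1*, -0.29 to 0.31 for *Foxo4*, -0.11 to 0.59 for *Tsc1*, -0.18 to 0.11 for *Tsc2*, -0.19 to 0.12 for *Rheb*, -0.33 to 0.022 for *Rictor*, -0.086 to 0.27 for *Rps6kb1* and -0.087 to 0.29 for *Eif4ebp2*. It ran from -0.40 to 0.39 for *Igf1*, -0.93 to 0.18 for *Igf2*, -1.20 to 0.10 for *Igfbp2*, -0.014 to 0.55 for *Igfbp5*, -0.10 to 0.30 for *Npy* and -0.59 to 0.15 for *Pomc*. In percentage points of a family's FPKM, the diet difference ran from -3.65 to 4.18 for *Pik3r1*, -0.84 to 14.0 for *Pik3ca*, -2.03 to 3.22 for *Prkaa1*, -0.013 to 2.50 for *Insr* and 12.1 to 14.6 for *Eif4ebp1*. The range of *Eif4ebp1* is that of the pair without *Eif4ebp3*. Counts were lowest for *Foxo4*, *Inppl1*, *Eif4ebp1* and *Irs1*.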
